A study of Mus musculus with 8 samples.

Results

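The genes described here are 10 markers of macrophages and of their bone-resorbing relatives, the osteoclasts: Spi1, Csf1r, Cx3cr1, Ptprc, Tyrobp, Fcer1g, Cd68, Lyz2, Ctsk and Tnf. They were chosen by symbol, and all 10 were found among the 24421 genes of the deposited tables and passed the filter on low counts, which kept 15458 genes. The RNA came from embryonic stem cells of a CAST/Ei x 129/Sv/Jae hybrid mouse, wild type (WT) or with the mutation HNRNPK 6A, in a series on how Xist RNA spreads. HNRNPK is an RNA-binding protein, and the sources used here do not give what the 6A mutation substitutes or whether each genotype is 1 clone. Day 0 cells had grown on irradiated mouse embryonic fibroblast feeders with leukemia inhibitory factor, and the feeders were removed before harvest. Day 14 cells had lost the factor, spent 4 days in suspension as embryoid bodies, settled on gelatin at day 5 and differentiated further. The design text of the series speaks of day 7, but the samples are labelled day 14, and that is used here. The 4 groups, WT and 6A at day 0 and WT and 6A at day 14, had 2 libraries each, called biological replicates in the protocol. The labels do not say whether these came from separate cultures, so p-values measure only the spread between these samples.

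Libraries held 8146684 to 15540163 counts, and 3 counts summed over a group corresponded to a CPM of 0.112 to 0.145 (the usual unit of counts relative to library size, here with sizes adjusted by the trimmed mean of M values, TMM). Hnrnpk, the mutated gene, was at 709 and 880 CPM in WT, against 527 and 538 CPM for 6A at day 0, and at 474 and 495 CPM in WT, against 348 and 385 CPM for 6A at day 14. The fall passed the test at both days (log2 fold change -0.58 ± 0.12 standard error, with an edgeR adjusted p of 0.040, and -0.40 ± 0.12, adjusted p = 0.043).

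Macrophages of the early embryo arise in the yolk sac from mesoderm that also gives primitive red cells and endothelium, and embryoid bodies form such cells as they differentiate. Their fate depends on PU.1, the transcription factor encoded by Spi1, and on signals through the receptor of colony stimulating factor 1, encoded by Csf1r. Macrophages recognise debris and microbes through surface receptors that signal through small adaptors with an immunoreceptor tyrosine-based activation motif, and digest what they engulf in lysosomes. Osteoclasts form by fusion of cells of the same lineage and secrete acid, proteases and phosphatases onto bone.

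The RefSeq promoters kept here (GRCm38.p6) were a selection, with 8 entries for 7 of the 10 genes. A gene without an entry in this selection may still have a promoter in RefSeq. The sequence before the RefSeq start is shown for 4 of them: Ctsk and Lyz2, which had the largest differences between genotypes at day 14, and Cd68 and Tnf, which did not pass the test. For Lyz2, bases inside the gene as annotated by GENCODE were cut, so 201 are shown and those nearest the start are missing. Capitals mark GAGGAA on either strand, the core of the motif that PU.1 is known to bind.
Ctsk: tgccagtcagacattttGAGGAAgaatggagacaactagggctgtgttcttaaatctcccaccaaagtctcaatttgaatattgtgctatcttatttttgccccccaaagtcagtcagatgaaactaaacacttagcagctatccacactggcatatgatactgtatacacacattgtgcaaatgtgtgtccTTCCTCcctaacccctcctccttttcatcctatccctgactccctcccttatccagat
Lyz2: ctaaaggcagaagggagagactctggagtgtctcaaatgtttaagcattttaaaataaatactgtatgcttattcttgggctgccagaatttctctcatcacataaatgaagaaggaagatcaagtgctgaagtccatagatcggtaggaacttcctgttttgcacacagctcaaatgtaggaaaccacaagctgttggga
Cd68: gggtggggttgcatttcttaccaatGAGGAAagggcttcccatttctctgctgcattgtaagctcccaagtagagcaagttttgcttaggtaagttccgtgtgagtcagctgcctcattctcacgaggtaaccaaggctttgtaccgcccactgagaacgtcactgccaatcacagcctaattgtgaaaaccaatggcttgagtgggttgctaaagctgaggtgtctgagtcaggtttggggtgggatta
Tnf: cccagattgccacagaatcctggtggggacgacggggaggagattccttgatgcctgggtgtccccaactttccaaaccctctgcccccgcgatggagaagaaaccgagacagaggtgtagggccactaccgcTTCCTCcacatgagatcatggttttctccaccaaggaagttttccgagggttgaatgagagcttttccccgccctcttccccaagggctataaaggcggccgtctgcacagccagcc
They lie at chr3:95498960-95499209 on the plus strand (Ctsk), and on the minus strand at chr10:117282322-117282522 (Lyz2), chr11:69666171-69666420 (Cd68) and chr17:35202008-35202257 (Tnf). In Ctsk the matches begin 233 and 58 bases before the start, in Cd68 225 and in Tnf 117, and the stretch of Lyz2 has none. Over the 250 bases before the start, 4 of the 7 genes had at least 1 match in an entry (Ctsk, Cd68, Tnf and 1 of 2 entries of Ptprc). Of the 32851 promoters kept for all genes, 23.3% had a match. The longer GAGGAAGT, which contains GAGGAA, was in none of the 7 and in 2.44% of promoters. A match here is a description of letters, not of binding.

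At day 14 the 6A cultures held more RNA of most macrophage genes than the WT cultures. Of the 10 genes 7 rose, by 1.77-fold to 10.6-fold, against 5.33% of all tested genes called higher in 6A. None was called lower, and Cd68 (log2 fold change -0.10 ± 0.15), Fcer1g and Tnf did not pass. In 9 of the 10, Cd68 being the exception, both 6A libraries were above both WT libraries, against 28.2% of all tested genes. The median log2 fold change was 0.87 over the 10 genes and 0.00 over all tested genes. In such bulk samples, more cells of a type and more RNA per cell cannot be told apart.

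**Figure D1:**
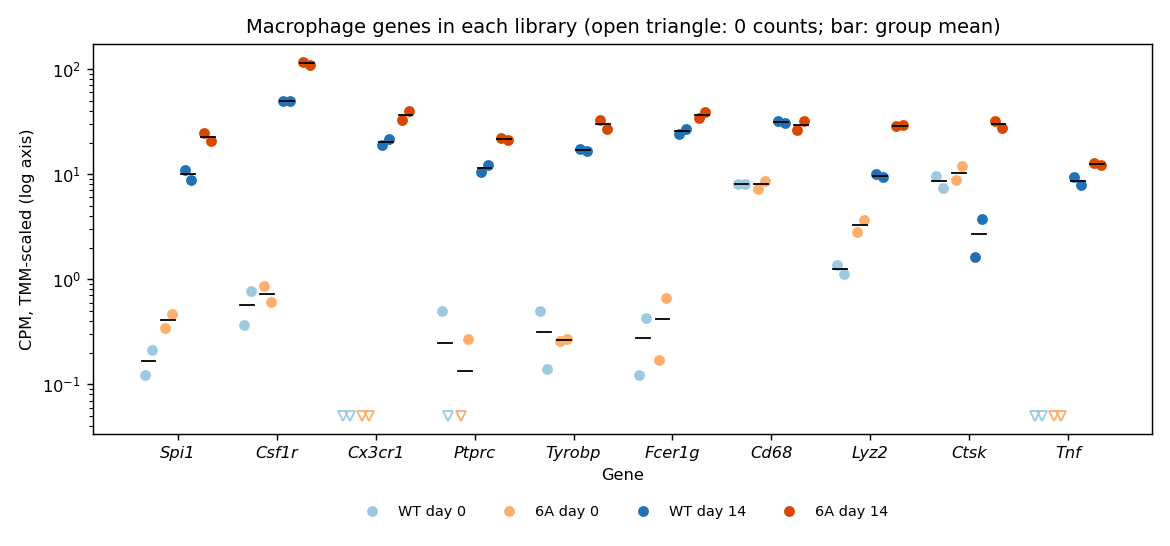
Level of each macrophage gene in each of the 8 libraries, in TMM-scaled CPM on a log axis, coloured by group, with a bar at the group mean and open triangles for libraries at 0 counts. Day 14 libraries (darker) lie above day 0 libraries except for Ctsk in WT, and 6A lies above WT at day 14 except for Cd68.

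The lineage regulators come first. Spi1 (chromosome 2, 91082390 to 91115756, plus strand of mm10, as for the positions below) stood at 11.0 and 8.86 CPM in the WT libraries at day 14 and at 24.6 and 20.8 CPM in the 6A libraries. The groups did not overlap, and the difference passed the test (log2 fold change 1.20 ± 0.19, with an edgeR adjusted p of 0.00084). Csf1r (chromosome 18, 61100598 to 61132149, plus strand) had the highest CPM of the 10 at day 14, a value not scaled to length, with 49.3 and 49.9 CPM in WT, against 118 and 109.8 CPM for 6A. The spread within each group was a small part of the gap between them (1.20 ± 0.14, adjusted p = 5.7e-05). Its span overlaps the antisense gene Hmgxb3, and the sources used here do not give the strand setting of the counts. Hmgxb3 was at 78.5 to 81.2 CPM in the 4 day 14 libraries, while Csf1r was at most 0.855 CPM at day 0, where Hmgxb3 was at 109.5 to 126 CPM.

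RNA of the other surface proteins rose by smaller amounts. Cx3cr1, the receptor of the chemokine fractalkine (chromosome 9, 119901616 to 120069879, minus strand), was at 19.0 and 21.7 CPM in WT, against 32.4 and 40.2 CPM for 6A (log2 fold change 0.83 ± 0.18, with an edgeR adjusted p of 0.0082). Ptprc, the pan-leukocyte phosphatase CD45 (chromosome 1, 138062861 to 138175708, minus strand), was at 10.5 and 12.1 CPM in WT, against 21.9 and 21.1 CPM for 6A (0.92 ± 0.28, adjusted p = 0.044). For both genes the libraries of the genotypes were apart. The annotated span of Cx3cr1 holds 3 genes on its own strand (Gorasp1, Csrnp1 and Xirp1) and others antisense, among them Wdr48. Wdr48 had 775 to 1524 counts in the day 0 libraries, where Cx3cr1 had 0. The call of Ptprc was lost without any 1 of the 4 day 14 libraries (adjusted p = 0.15 to 0.27) and with DESeq2 (adjusted p = 0.73). The call of Cx3cr1 was lost without WT day 14 replicate 1 (adjusted p = 0.10), WT day 14 replicate 2 (0.056) or 6A day 14 replicate 2 (0.099).

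Tyrobp (DAP12, chromosome 7, 30413760 to 30417585, plus strand) and Fcer1g (the common Fc receptor gamma chain, chromosome 1, 171229572 to 171234365, minus strand) encode the signalling adaptors. Tyrobp was at 17.4 and 16.4 CPM in WT, against 33.1 and 26.6 CPM for 6A at day 14 (log2 fold change 0.82 ± 0.19, with an edgeR adjusted p of 0.0089). Its call was lost without WT day 14 replicate 1 (adjusted p = 0.071), WT day 14 replicate 2 (0.10) or 6A day 14 replicate 1 (0.12). Fcer1g was at 24.3 and 27.0 CPM in WT, against 33.9 and 38.9 CPM for 6A, also without overlap, but did not pass (0.50 ± 0.19, adjusted p = 0.11). Tnf, the inflammatory cytokine tumour necrosis factor (chromosome 17, 35199381 to 35202007, minus strand), had the lowest CPM of the 10 in 6A at day 14. It stood at 9.39 and 7.91 CPM in WT, against 12.7 and 12.4 CPM for 6A (0.54 ± 0.21, adjusted p = 0.13).

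The 3 lysosomal genes differed most from each other. Lyz2, lysozyme M (chromosome 10, 117277331 to 117282321, minus strand), was at 9.97 and 9.33 CPM in WT, against 28.7 and 29.2 CPM for 6A at day 14 (log2 fold change 1.59 ± 0.18, with an edgeR adjusted p of 5.0e-05). Lyz1, its close copy 5476 bases away, had at most 4 counts in any library, and the sources used here do not give how reads were shared between copies. Ctsk, cathepsin K, the collagen-cutting protease of osteoclasts (chromosome 3, 95499256 to 95509362, plus strand), was at 1.62 and 3.72 CPM in WT, against 32.0 and 27.8 CPM for 6A. This was the largest difference of the 10 (3.41 ± 0.28, adjusted p = 6.7e-06), although the WT libraries, with 14 and 47 counts, differed from each other, as a ratio, more than those of any other of the 10 genes at day 14. Without WT day 14 replicate 2 the log2 fold change was 4.19, the highest over the alternatives, all of which kept the call. Cd68, a lysosomal membrane glycoprotein (chromosome 11, 69664213 to 69666153, minus strand), was at 31.8 and 30.7 CPM in WT, against 26.2 and 32.0 CPM for 6A. Its groups overlapped (adjusted p = 0.73).

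**Figure D2:**
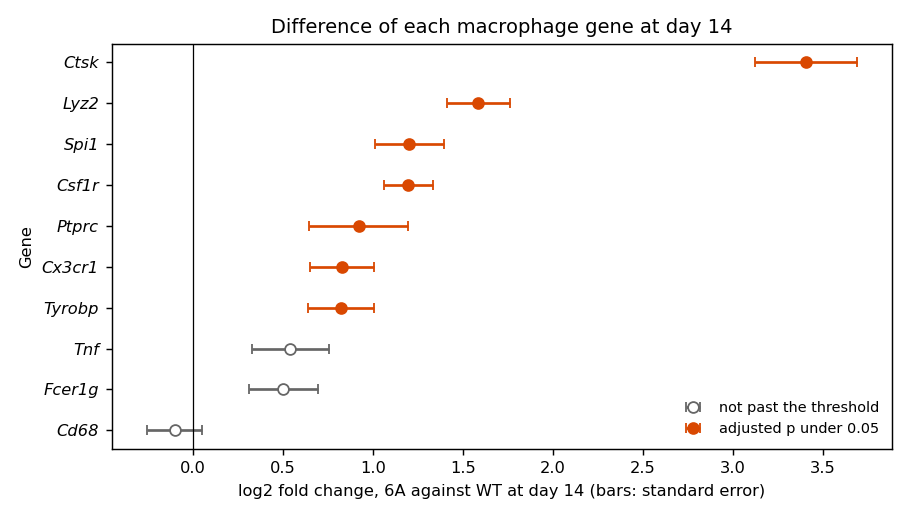
Log2 fold change of each macrophage gene in 6A against WT at day 14, with its standard error, and filled points for genes past the threshold of adjusted p = 0.05. Ctsk stands at 3.41 and Cd68 at -0.10, with the other 8 genes between 0.50 and 1.59.

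Ratios taken within a library do not depend on scaling and set the genes beside each other. Csf1r was taken as the reference because it had the most counts, a choice made after its values were seen. Per 100 counts of Csf1r, Spi1 had 22.4 and 17.7 counts in the WT libraries and 20.9 and 18.9 in the 6A libraries, so the libraries of the genotypes overlapped. Ctsk had 3.29 and 7.45 counts per 100 of Csf1r in WT and 27.2 and 25.3 in 6A, a mean 4.89 times as high. Lyz2 had 20.2 and 18.7 in WT and 24.4 and 26.6 in 6A, 1.31 times as high. Cd68 was lower in 6A, with 64.5 and 61.5 in WT and 22.2 and 29.1 in 6A, a ratio of 0.408. Relative to Csf1r, 2 of the other 9 genes were higher in both 6A libraries than in both WT libraries, 6 were lower and 1, Spi1, overlapped. Of all other tested genes, 1.08% were higher and 94.2% lower by the same rule. A lower value per Csf1r therefore says only that a gene rose by less than Csf1r, did not change or fell. The lower genes besides Cd68 were Fcer1g (ratio 0.621), Tnf (0.631), Tyrobp (0.768), Cx3cr1 (0.781) and Ptprc (0.830). An exact permutation test of 2 libraries against 2 cannot reach the threshold (its smallest two-sided p is 0.333), so these ratios are a description.

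**Figure D3:**
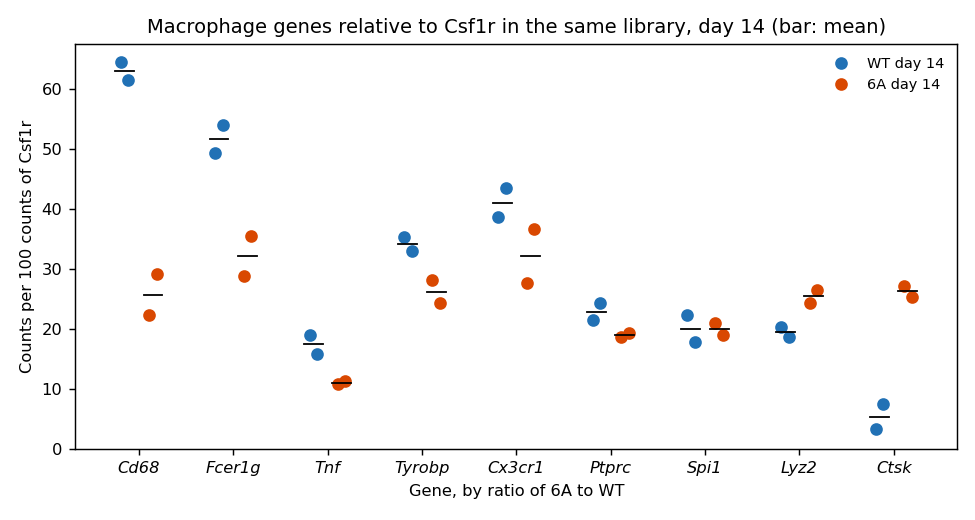
Counts of each of the other 9 macrophage genes per 100 counts of Csf1r in the same library at day 14, for WT and 6A, with a bar at the mean of 2 libraries. The means of WT and 6A are 63.0 and 25.7 for Cd68, 20.1 and 19.9 for Spi1, and 5.37 and 26.3 for Ctsk.

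The order of the levels can be compared between genes only per length. Scaled to the exons of GENCODE release M21 (CPM per kilobase), the adaptors led in both genotypes at day 14. In WT, Fcer1g was at 29.4 ± 2.12 (SD, n = 2), Tyrobp at 25.4 ± 0.996 and Cd68 at 24.8 ± 0.607 CPM per kilobase, where Tyrobp and Cd68 overlapped. Csf1r (8.59 ± 0.0776) and Lyz2 (7.33 ± 0.343) followed, then Tnf (5.28 ± 0.639) and Cx3cr1 (4.52 ± 0.429), which overlapped, then Spi1 (3.69 ± 0.566), Ctsk (1.77 ± 0.979) and Ptprc (0.618 ± 0.0599). In 6A, Tyrobp (44.8 ± 6.87) and Fcer1g (41.6 ± 4.05) overlapped at the top. Next came Cd68 (23.1 ± 3.25), Lyz2 (22.0 ± 0.254), Ctsk (19.8 ± 1.95) and Csf1r (19.7 ± 0.963), in which Cd68 overlapped both Lyz2 and Ctsk, and Ctsk overlapped Csf1r. Spi1 (8.42 ± 1.02), Cx3cr1 (8.06 ± 1.21) and Tnf (7.63 ± 0.127) overlapped in turn, and Ptprc was last (1.18 ± 0.0301). Ctsk therefore stood in the ninth place in WT and in the fifth in 6A. The annotated exons of Ptprc add up to 18313 bases, which lowers its value per kilobase where only part of them is used.

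Most or all of the 10 genes were higher at day 14 than at day 0 in each genotype. From day 0 to day 14, 9 of the 10 genes rose in WT and 1, Ctsk, fell, while all 10 rose in 6A. Of all tested genes, 38.4% were called higher and 36.8% lower in WT (75.2% in all), and 35.4% were called higher and 36.6% lower in 6A (71.9% in all). Both day 14 libraries lay above both day 0 libraries for 9 of the 10 genes in WT and for 10 in 6A, against 44.5% and 42.6% of all tested genes. Genes nearly silent at day 0 passed the filter through their day 14 libraries, so these counts are a description. The 2 comparisons of days share no library, but each shares its day 14 group with the comparison of genotypes.

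At day 0 the defining genes were at or near the floor. Cx3cr1 and Tnf had 0 counts in all 4 libraries. Against a floor of 3 counts over the group, Cx3cr1 was at least 153-fold higher at day 14 in WT and at least 323-fold higher in 6A, and Tnf at least 63.1-fold and at least 111-fold higher. Ptprc had 4 counts in WT and 4 in 6A at day 0, Tyrobp 6 and 7, Fcer1g 7 and 12, and Spi1 4 and 11. Csf1r had 14 counts in WT and 19 in 6A. Its fitted log2 difference between the days was 6.29 in WT and 7.29 in 6A, a description like the counts above. In WT it was 7.01 without WT day 0 replicate 2.

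Cd68, Ctsk and Lyz2 were above the floor in undifferentiated cultures. Cd68 was at 8.02 and 8.12 CPM in WT, against 7.27 and 8.68 CPM for 6A at day 0, and rose to day 14 by a log2 fold change of 1.95 ± 0.17 in WT (with an edgeR adjusted p of 1.7e-07) and 1.86 ± 0.17 in 6A (adjusted p = 2.6e-07). The nearest coding gene, Eif4a1, ends 783 bases upstream on the same strand and was at 764 to 1003 CPM at day 0 and 315 to 433 CPM at day 14. Whether its transcripts supplied reads of Cd68 was not tested.

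Ctsk was at 9.63 and 7.41 CPM in WT, against 8.81 and 11.9 CPM for 6A at day 0. In WT it then fell to 1.62 and 3.72 CPM (log2 fold change -1.58 ± 0.31, with an edgeR adjusted p of 0.00045), and in 6A it rose to 32.0 and 27.8 CPM (1.52 ± 0.24, adjusted p = 6.4e-05). The fall in WT was -2.36 without WT day 14 replicate 2 and -1.13 without WT day 14 replicate 1, past the threshold in both. The genotypes thus moved in opposite directions. The genotype by day interaction, by how much the effect of 6A was larger at day 14 than at day 0, was 3.10 ± 0.39 (adjusted p = 0.00080). Ctsk was the only 1 of the 10 that passed this test, which 1.4% of all tested genes passed upward, 3.34% downward and 4.74% in either direction. It passed in each of the 12 alternatives tried, with a log2 value of 2.69 to 3.89. The interaction was 1.01 ± 0.46 for Csf1r (adjusted p = 0.27), 0.17 ± 0.36 for Lyz2 (adjusted p = 0.87) and -0.09 ± 0.24 for Cd68 (adjusted p = 0.89). For the other 6 genes, with fewer than 10 counts in at least 1 group at day 0, no value is given. That these 6 did not pass says little, as day 0 gave few counts to compare, and 0 for Cx3cr1 and Tnf.

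Between genotypes at day 0, Lyz2 was at 1.36 and 1.13 CPM in WT, against 2.82 and 3.67 CPM for 6A (log2 fold change 1.42 ± 0.28, with an edgeR adjusted p of 0.030). It was the only 1 of the 10 called at day 0, where 1.06% of tested genes were called higher, and rested on 11, 16, 33 and 55 counts. The call was lost without WT day 0 replicate 2 (adjusted p = 0.15), 6A day 0 replicate 1 (0.053), 6A day 0 replicate 2 (0.30), WT day 14 replicate 1 (0.063) or WT day 14 replicate 2 (0.061), and with only the 2 groups fitted (0.18). Both 6A libraries were above both WT libraries for 2 of the 10, Lyz2 and Spi1, against 24.9% of tested genes. Differences were 0.31 ± 0.26 for Ctsk (adjusted p = 0.58), 0.19 ± 0.42 for Csf1r (0.90) and -0.01 for Cd68 (0.99).

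Y-linked and fibroblast genes were read at day 0 as possible marks of feeders. For the Y-linked genes this takes the stem cells to lack a Y chromosome. The summed level of 6 Y-linked genes, of which Usp9y and Zfy1 were at 0, was 28.3 and 28.2 CPM in WT, against 43.4 and 46.9 CPM for 6A at day 0, a ratio of 1.60 between the means. None of the 4 tested Y-linked genes was called by edgeR (3 had an unadjusted p under 0.05) or by DESeq2 (2 had). At day 14 it was 0 in 3 libraries and 0.0966 CPM in 6A replicate 1, with 5 of the 6 genes at 0. The sum over 12 fibroblast genes at day 0 was 1666 and 1545 CPM in WT, against 2343 and 1767 CPM for 6A. Of the 12, 2 were called higher in 6A, Lox and Postn, against 1.06% of all tested genes. The part of feeder RNA in the day 0 levels of Lyz2, Ctsk and Cd68 was not tested.

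The wider macrophage programme was followed in 7 lists holding 124 genes besides the 10, of which 113 were tested. Not all of them are particular to macrophages. At day 0, where Csf1r was at most 0.855 CPM, Lamp1 was at 641 to 753 CPM and Inpp5d at 139 to 189 CPM. At day 14, 60 of the 113 rose in 6A and 3 fell (Fcgr2b, Itgb3 and Spp1), against 5.33% of all tested genes called higher and 8.31% called lower. The count of 60 fell to 31 without WT day 14 replicate 1, 21 without WT day 14 replicate 2, 32 without 6A day 14 replicate 1 and 38 without 6A day 14 replicate 2. At day 0, 2 of the 113 were called lower in 6A, against 0.518% of all tested genes, among them the tyrosine kinase Syk. The fibroblast sum at day 14 was 11132 and 9714 CPM in WT, against 14611 and 10427 CPM for 6A.

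Among myeloid transcription factors, 4 of 11 tested genes rose. Maf, a regulator of tissue macrophages, was at 158 and 162 CPM in WT, against 344 and 362 CPM for 6A at day 14 (log2 fold change 1.14 ± 0.12, with an edgeR adjusted p of 2.8e-05). Ikzf1, the lymphoid and myeloid factor Ikaros (1.12), Tfec, a relative of Mitf (1.47), and Runx1, needed for definitive blood (0.53), also rose. Of 22 myeloid surface genes, 12 rose and 1 fell. Adgre1, the macrophage marker F4/80, was at 14.8 and 13.7 CPM in WT, against 38.0 and 40.2 CPM for 6A (1.46 ± 0.17, adjusted p = 8.8e-05). Others were the inhibitory receptor Sirpa (0.74), the scavenger receptor Msr1 (1.11) and the Fc receptor Fcgr1 (1.26).

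Of 25 genes for leukocyte signalling and cytoskeleton, 17 rose, with Arhgdib at 1.28, the actin bundler Lcp1 at 1.04, the kinase Syk at 0.89 and the Rac activator Dock2 at 1.07 on the log2 scale. Arhgdib was already at 55.9 to 84.2 CPM and Syk at 16.2 to 35.3 CPM at day 0, so a rise of these genes is not particular to macrophages. Of 19 genes for the macrophage lysosome and complement, 12 rose. C1qa, a subunit of complement C1q, was at 16.8 and 13.5 CPM in WT, against 45.7 and 35.4 CPM for 6A at day 14 (1.43 ± 0.18, with an edgeR adjusted p of 0.00015), and C1qb (1.06) and the complement receptors C3ar1 (1.10) and C5ar1 (1.45) also rose. Of 14 ligands, chemokines and cytokines, 3 rose and 1 fell. Csf1, a ligand of Csf1r, went from a mean of 124 CPM in WT to 183 CPM in 6A (0.56 ± 0.12, adjusted p = 0.0048), with Il18 at 1.58 and the chemokine Ccl2 at 0.91, while Spp1, osteopontin, fell by 0.55 on the log2 scale. Of 8 microglia genes, 2 rose, Fcrls (0.88) and Olfml3 (0.48).

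Of these 7 lists the osteoclast genes had the highest median log2 fold change at day 14, 1.17 over 14 tested genes, 10 higher and 1 lower (Itgb3, an integrin subunit shared with platelets). One of the tested genes, Ocstamp, had 2 counts in WT and 27 in 6A at day 14. It passed the filter only through the 6A day 14 libraries, so the rank of this list is a description. Mmp9, a gelatinase, was at 11.5 and 12.3 CPM in WT, against 96.6 and 64.0 CPM for 6A at day 14 (log2 fold change 2.75 ± 0.20, with an edgeR adjusted p of 1.8e-06). Acp5, the tartrate-resistant acid phosphatase, was at 4.06 and 4.82 CPM in WT, against 28.5 and 23.3 CPM for 6A (2.53 ± 0.20, adjusted p = 3.3e-06). Atp6v0d2, a subunit of the proton pump, was at 1.16 and 0.949 CPM in WT, against 4.35 and 8.01 CPM for 6A (2.56 ± 0.43, adjusted p = 0.0012). Car2, the carbonic anhydrase that supplies acid, rose as well (1.22). With Ctsk, these genes had larger differences than Csf1r or Spi1, except Car2, which was close to both. The receptor of calcitonin, Calcr, a marker of mature osteoclasts, was at a mean of 0.98 CPM for WT and 0.772 CPM in 6A and did not pass (adjusted p = 0.72). Of the list, Car2 also marks red cells, which moved in the same direction.

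**Figure D4:**
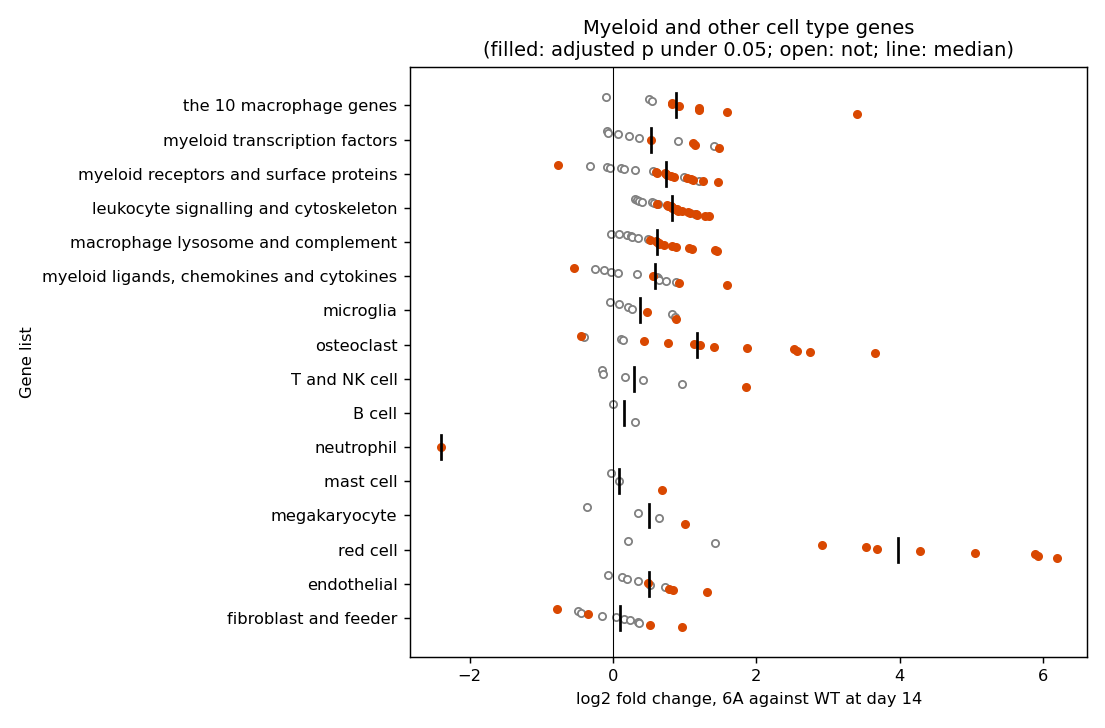
Log2 fold change in 6A against WT at day 14 of every tested gene of each list, filled where the adjusted p was under 0.05, with a line at the median of the list. The osteoclast genes reach from below 0 to 3.65, and the red cell genes have a median of 3.98.

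Genes of other blood cells were read in the same way. Over all tested genes, 5.33% were called higher and 8.31% lower in 6A at day 14. Red cell genes rose together, 8 of 10 tested, and their summed level went from 7.91 to 11.6 CPM in WT to 96.1 to 96.7 CPM in 6A at day 14. For example, Hbb-bh1, Hba-x and Hbb-y, embryonic globins, had means of 0.451, 0.39 and 0.329 CPM for WT and 29.2, 28.3 and 17.5 CPM in 6A, and the heme enzyme Alas2 had 2 counts in WT and 72 in 6A. These genes passed the filter only through the 6A day 14 libraries, so the count of red cell genes called is a description. In the lists of lymphocyte and neutrophil markers several defining genes were at 0 in all day 14 libraries. The T and NK cell list summed to 8.23 to 9.01 CPM for WT and 11.2 to 12.2 CPM in 6A at day 14, with Cd3d, Cd3g, Ncr1 and Gzmb at 0, and Cd4 was its only gene called (11 counts in WT, 39 in 6A). The neutrophil list summed to 2.45 to 2.55 CPM for WT and 0.772 to 0.869 CPM in 6A, with S100a8, S100a9, Ngp and Retnlg at 0, and Prtn3 fell from 39 counts to 7. The B cell list, with Blk at 0, summed to 18.0 to 20.1 CPM for WT and 16.3 to 22.1 CPM in 6A, and neither of its 2 tested genes was called. Of 3 tested mast cell genes Gata2 rose (log2 fold change 0.68), and of 4 tested megakaryocyte genes Pf4 rose (1.01). The mast cell genes Cpa3, Fcer1a and Tpsb2 were at 0 at day 14. Endothelial genes rose in part, 4 of 10 (Tek, Cdh5, Tie1 and Pecam1, by 0.49 to 1.30), and of 12 fibroblast genes Dcn (0.97) and Lox (0.52) rose while Twist1 (-0.78) and Postn (-0.35) fell. The macrophage genes thus moved in the same libraries as red cell and endothelial genes, and the part of the one in the other was not tested.

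Over the 8 libraries, the 6 genes whose log2 CPM followed the mean standardised profile of the 10 most closely were Gcnt1, Rab7b, Tnfaip8, Sirpa, Podxl and Tg, with a Pearson r of 0.997 to 0.999. The 8 libraries fall into 4 groups, and most of this likeness is the rise to day 14 and the further step in 6A. Gcnt1, a glycosyltransferase, for example, was at 8.12 to 9.15 CPM at day 0, 23.4 and 25.0 CPM in WT at day 14 and 35.3 and 38.4 CPM in 6A.

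The tables also split reads between the CAST and the 129 genome. Of 13564 genes with at least 20 such reads over the 4 day 14 libraries, 61.1% had 95% or more of them on the 129 side, and 8 of the 10 macrophage genes did. This followed position. Around each of those 8 genes and Fcer1g, the median share over genes within 5 megabases was 98.7% to 99.1%, so reads of CAST were few for most genes around them. The region of Cx3cr1 was more mixed, with 39 of 62 neighbours at 95% or more, against 50 of 52 around Csf1r. Tyrobp, on chromosome 7, was the exception. It had 175 reads of 129 and 199 of CAST at day 14, a share of 46.8% (95% exact Clopper-Pearson interval 41.6% to 52.0%, for counting error only), and its 145 neighbours had a median of 51.0%. The share was 48.3% and 48.6% in the WT libraries and 42.7% and 49.5% in the 6A libraries, so the groups overlapped and both alleles were read in both genotypes. Fcer1g had 87.1% (84.8% to 89.1%) where its neighbours had a median of 98.9%, and the share ran from 85.0% to 88.7% over the 4 libraries.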

How the data were processed

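Per the submitters' processing notes, cutadapt 1.4.2, STAR 2.7.10a and the build mm10 were used. Total RNA was depleted of ribosomal RNA and sequenced as 150-base paired-end reads from directional libraries, per the labels' protocols. The sources used here do not give the counting tool, annotation, strand setting or allele assignment. The deposited values are raw counts per gene: all reads, and reads given to the CAST or the 129 genome.

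Genes were kept by filterByExpr (15458 of 24421), scaled by TMM and fitted with edgeR 4.0.16 (R 4.3.3) by quasi-likelihood with robust dispersion, with all 8 libraries and 1 coefficient per group, leaving 4 residual degrees of freedom. A gene was called where its p, adjusted by Benjamini-Hochberg over all genes tested, was under 0.05. Standard errors are the log2 fold change over the root of the F statistic. The 10 genes and all lists were chosen with earlier results of these data known. Besides the 10, up to 4 called genes of each list with the smallest adjusted p at day 14 are named, with the 6 genes of most similar profile; other names were chosen after their values were seen. Alternatives were RLE scaling, no filter, DESeq2 1.42.0, a replicate block, only 2 groups, and each library left out. Results for some list genes are not reported here. Coordinates and exon lengths came from GENCODE M21, promoters from RefSeq. Totals ran from 8146684 to 15540163 counts, and intervals and floors cover counting error only.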

Additional observations from a re-analysis of the deposited data

Results flagged for a closer look

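The 6A difference at day 14 differed from that at day 0 by the interaction test for 15 of the named genes, Ctsk being the only 1 of the 10 macrophage genes, with a log2 interaction of 3.10. Those of the 15 outside the 10 had been named for a small adjusted p at day 14. The interaction uses the same day 14 libraries, so the count of 15 is a description. Of all tested genes, 4.74% passed the interaction test in either direction. Among the other myeloid and osteoclast genes the log2 interaction was 3.13 for Mmp9, 1.69 for Acp5, 0.95 for Car2, 0.64 for Sirpa, 0.87 for Arhgdib, 1.86 for Syk, 1.26 for Dock2 and -0.68 for Spp1. Syk was lower in 6A at day 0 (a mean of 32.8 CPM for WT and 16.7 CPM in 6A) and higher at day 14 (20.4 and 37.7 CPM). Outside them the values were 6.39 for Hbb-bh1, 9.14 for Hba-x, 1.61 for Tek, 3.04 for Tie1, -0.99 for Twist1 and -0.88 for Postn. In 6A at day 0, Hba-x had 1 count, Tie1 4 and Hbb-bh1 6, so their fitted values depend on the prior count.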

How the results depend on the processing

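The number of the 10 genes called was 10 in WT and 10 in 6A for day 14 against day 0, and 1 for the interaction, under every alternative run. At day 14, 7 were called in 6A against WT, with 4 to 7 called over the fits that leave out 1 library (4 without WT day 14 replicate 1 or 2), 8 with no filter on low counts, 8 with only the 2 groups fitted and 6 with DESeq2. Fcer1g was the gene added, with an adjusted p of 0.036 and 0.017. At day 0 the 1 call (Lyz2) became 0 to 1 over those fits and 0 with only the 2 groups fitted. Of the other myeloid and osteoclast genes, 60 rose, with 21 to 64 over the fits without 1 library and 48 with DESeq2. The median 129 share of the 10 genes at day 14, 99.0%, ran from 99.0% to 99.6% without 1 library. Uncalled differences changed sign in some fits without 1 library: they ran from -0.13 to 0.92 for Csf1r at day 0 (-0.06 without 6A replicate 1), and for Cd68 from -0.15 to 0.10 at day 0, from -0.25 to 0.039 at day 14 and from -0.23 to 0.055 in the interaction (0.052 without 6A day 0 replicate 2). The fits without 1 library of the 129 share were chosen after seeing the data.

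Same-numbered libraries correlated in their deviations by 0.00873 to 0.298 between groups, over 0.1 in 3 of 6 pairs of groups. As this was not so in every pair and the labels name no shared batch, the numbers were not taken to pair the samples. With the replicate number as a block, 1 of the 10 was called at day 0, 7 at day 14, 10 in each comparison of days and 1 in the interaction, as without it. Depth limits day 0, where 6 of the 10 genes had fewer than 10 counts in a group.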
